A study of Mus musculus with 2 samples.

Results

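The genes described here are the replication-dependent histone genes, taken as every row of the count tables whose symbol starts with Hist1h, Hist2h, Hist3h or Hist4h. They made up 68 of the 22609 gene rows. By class they comprised 6 rows for the linker histone H1, 18 for H2A, 19 for H2B, 12 for H3 and 13 for H4. By cluster, 54 were Hist1 genes, 10 Hist2, 3 Hist3 and 1 Hist4, and 2 of the rows were named as pseudogenes. The measurement was RNA sequencing after RNA immunoprecipitation with an Ago2 antibody in TM4 cells, an established mouse Sertoli cell line, 48 h after transfection. One library came from cells given miR-471-5p mimic and the other from cells given scramble. Input RNA, taken before the Ago2 antibody was added, was not analysed here. With 1 library per condition no difference has a replicate check, no p-value is given, and every interval covers counting error only. An amount of mRNA in the cells and its association with Ago2 cannot be told apart.

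Histones are the proteins around which DNA is wound. H2A, H2B, H3 and H4 form the core of the nucleosome, and H1 binds the DNA between cores. The clustered genes are transcribed mainly in S phase, when new chromatin is assembled, and their mRNAs are the only known cellular mRNAs in animals that usually end without a poly(A) tail. Instead, the mRNA ends shortly after a conserved stem-loop that is bound by Slbp, the stem-loop binding protein. Some of these genes can also give longer, polyadenylated mRNAs from a signal downstream of the stem-loop. Ago2 is the Argonaute protein that holds a mature miRNA and uses it to find complementary mRNAs. Whether poly(A) selection was used for the libraries is not given in the sources used here.

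The stem-loop is shown first because it is the feature that sets these mRNAs apart and because it marks where the short form of each mRNA ends. The letters were read from the longest coding transcript of each gene in GENCODE M21 (GRCm38), with the 16 bases of the stem-loop in capitals and 5 bases on each side. A selection of genes with a match is given, to show the forms of the stem.
Hist3h2a: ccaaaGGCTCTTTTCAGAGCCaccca
Hist1h1c: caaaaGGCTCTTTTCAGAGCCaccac
Hist1h1e: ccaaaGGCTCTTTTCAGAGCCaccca
Hist1h2bj: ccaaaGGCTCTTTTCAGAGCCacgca
Hist2h3c1: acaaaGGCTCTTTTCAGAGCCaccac
Hist1h3c: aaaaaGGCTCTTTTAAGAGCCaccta
Hist1h4d: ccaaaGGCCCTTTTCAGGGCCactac
Hist1h4b: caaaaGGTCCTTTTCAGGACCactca
A stem-loop, searched on the transcript strand as GG, any 3 bases, TTNTNA, any 3 bases and CC, with the outer 6 bases on each side able to pair (G with T allowed), was found in 44 of the 67 histone genes present in that annotation. The same search found it in 0.255% of the other 18421 coding genes of the tables. The most frequent form, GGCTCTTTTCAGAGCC, was held by 24 members, among them 10 H2A and 7 H2B genes. H4 genes differed in the stem: 7 of them carried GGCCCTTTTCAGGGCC. Of the 23 genes without a match, 15 had under 20 annotated bases after the stop codon, so the annotation stops before the place where the stem-loop would lie. No match was found in the longest coding transcript of Hist1h2bc, which has 2 exons, 742 bases of 3′-UTR and 185 reads over both libraries. The same held for Hist2h2be, with 88 reads and 2192 bases. Other transcripts of these genes were not searched, so a stem-loop in a shorter form would not have been seen.

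The second sequence of interest is the transfected miRNA itself, with its seed (bases 2 to 8) in capitals.
miR-471-5p: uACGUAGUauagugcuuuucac
Its gene is on chromosome X, where the mature sequence spans 66792634 to 66792655 (minus strand, GRCm38.p6). The 7-base match to this seed, ACTACGT, occurred in the transcript of 1 histone gene of 67, Hist1h1d, against 5.14% of the other coding genes. The longest coding transcript was searched over its whole length, and these shares were not adjusted for that length. Of the histone genes, 13 have no annotated 3′-UTR there. Hist1h1d, an H1 gene, has the longest annotated transcript of the histone genes, at 7425 bases. It had 28 reads with the mimic and 21 with scramble.

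Very few reads fell on these genes. They summed to 930 of 18628310 reads on genes in the mimic library and to 690 of 18717225 in the scramble library, or 0.00499% and 0.00369%. At least 1 read in either library was found for 55 of the 68 genes, or 80.9%, where the same held for 70.6% of all gene rows. The mimic library held reads of 48 members, the scramble library of 49, and 42 were seen in both. Only 31 had more than 3 reads in a library, and 16 members, or 23.5%, reached 20 reads over both libraries, against 53.9% of all rows. The 13 genes without a read included Hist1h1t and Hist1h2aa, histone genes of male germ cells, while Hist1h2ba, another, had 0 reads with the mimic and 1 with scramble. A count of 0 allows up to 0.161 CPM (the count scaled to the library total) with the mimic and 0.16 CPM with scramble, where 3 reads are taken as the limit. Of the 9 listed germ cell markers, 3 reached 20 reads over both libraries. In the order mimic, scramble, these were Ddx4 with 46 and 74 reads, Sycp3 with 58 and 48 and Prm1 with 12 and 9. The rest had at most 10 reads in a library. All 9 markers of that list together came to 6.96 and 8.15 CPM. For the Sertoli label, 7 of 13 listed markers reached 20 reads, with 1228 and 1070 for Sox9, while Fshr and Krt18 were at 0 in both libraries.

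Near-identical copies limit what these counts can show. A read that fits several positions was not assigned to a gene, and neither was a read lying over several genes. Entries with several alignments were 39.8% of the mimic table and 35.6% of the scramble table, and how many came from histone mRNAs cannot be read from the tables. To show how much sequence the copies share, the stretch of 30 coding bases found in the most genes of a class is given for the core histones.
H2A: gccatccgcaacgacgaggagctcaacaag
H2B: ctggcgcattacaacaagcgctcgaccatc
H3: aagctgccgttccagcgcctggtgcgcgag
H4: aacgtgatccgcgacgccgtcacctacacg
The H2A stretch was shared by 17 of 18 coding H2A genes, the H2B stretch by 17 of 18, the H3 stretch by 11 of 11 and the H4 stretch by 11 of 13.

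Over windows of 50 bases, the median histone gene had 50.3% of its windows in no other annotated gene (n = 67). The median was 98.9% in H1 (n = 6), 60.5% in H4 (n = 13), 54.7% in H2B (n = 19), 39.6% in H3 (n = 11) and 27.0% in H2A (n = 18). Hist1h2ao shared 93.5% of its windows with Hist1h2ap, and both had 0 reads. The pair Hist1h2bq and Hist1h2br, with 0 reads each, shared 100% of the windows of the former. The 34 genes with at least 50% of their windows unique held 78.6% of the histone reads, and the other 33 held 21.1%. The former include Hist3h2a, Hist1h1c and Hist1h2bc, the genes with the most reads. Per kilobase of transcript the groups were close, with medians of 7.55 and 6.45 reads over both libraries. The rank correlation between the share of unique windows and the reads of a gene was 0.293 over 67 genes that share 2 libraries, which is weak and is given as a description. Read length is not given in the sources used here, so 50 bases is an assumed length. An overlapping gene in the annotation also makes a window non-unique, as for Hist2h3c1, which had 0% unique windows and yet 38 and 33 reads. Its whole transcript of 1825 bases lies within that of another annotated gene, Gm20634.

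**Figure D1:**
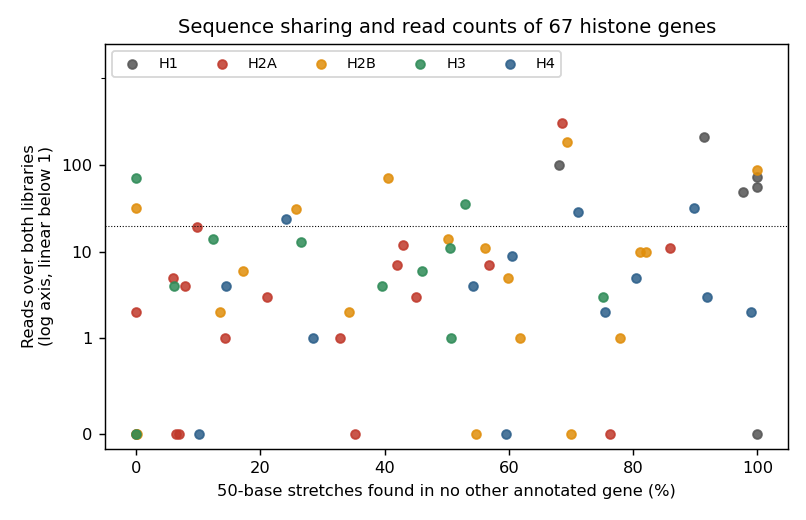
Each point is 1 of 67 histone genes, coloured by class, with the percentage of its 50-base windows found in no other annotated gene on the x axis and its reads over both libraries on a log y axis that is linear below 1. The dotted line marks 20 reads, which 16 genes reached, and genes with 0 reads occur at both low and high shares of unique windows.

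The reads were concentrated in a handful of genes. Hist3h2a, which encodes an H2A, had the most, with 205 reads with the mimic and 102 with scramble. It was followed by Hist1h1c with 116 and 94 reads and Hist1h2bc with 142 and 43. All 3 have annotated transcripts that run far past the coding region, with 1700 bases of 3′-UTR in Hist3h2a, 880 in Hist1h1c and 742 in Hist1h2bc. The 21 genes with an annotated 3′-UTR of at least 300 bases held 69.8% of the histone reads, and the other 45 with a coding region held 29.9%. Per kilobase of transcript the order was the other way, with a median of 6.10 reads in the former and 9.30 in the latter over both libraries. The limit of 300 bases was chosen after the transcripts had been examined. Long annotated transcripts were also found in genes with hardly a read, such as Hist4h4, the single Hist4 gene, with 2863 bases and 0 and 3 reads, and Hist2h4, with 1630 bases and 1 read in each library.

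Summed over all 68 genes, the histone reads were 1.35-fold higher in the mimic library (95% interval 1.22 to 1.49), a log2 ratio of 0.43. Without Hist3h2a and Hist1h2bc, which were left out after their values were seen, the sums were 583 and 545 reads, and the log2 ratio was 0.10 with an interval from -0.07 to 0.27. Of the 55 genes with a read, 31 had more in the mimic library, 17 had more in the scramble library and 7 were equal. The same split over all genes with a read was not computed. Among the 16 with at least 20 reads, 12 had a log2 ratio above 0. The same held for 6086 of all 12186 genes with at least 20 reads. It also held for 1502 of the 1955 among them that encode proteins of at most 250 residues. In the range from 20 reads up to the 307 of Hist3h2a, it held for 1492 of 2673 genes. Without Hist3h2a and Hist1h2bc, the core histones alone had 347 and 293 reads, 1.18-fold higher with an interval from 1.01 to 1.39.

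By class, the core histones H2A, H2B and H3 were higher in the mimic library, and H1 and H4 were not distinguishable from equal. The H2A genes had 249 reads with the mimic and 133 with scramble, giving a log2 ratio of 0.90 (0.59 to 1.22). The H2B genes had 291 and 178 reads, a log2 ratio of 0.71 (0.43 to 0.99). For H3 the sums were 100 and 66, with a log2 ratio of 0.60 (0.14 to 1.07). The H3 genes with at least 20 reads, Hist2h3c1 and Hist1h3c, had 61 and 45 together, and their log2 ratio of 0.44 (-0.14 to 1.03) was within counting error. The H4 genes, the class with the fewest reads, had 54 and 61, with a log2 ratio of -0.18 (-0.73 to 0.38). The H1 genes had 236 and 252, with a log2 ratio of -0.10 (-0.36 to 0.17). The interval of H1 did not overlap those of H2A and H2B, while those of H4 and H3 did overlap each other. The separation of H1 rested on single genes. Without Hist3h2a, H2A was at 0.50 (-0.19 to 1.22), and without Hist1h2bc, H2B was at 0.14 (-0.20 to 0.49). Both of these intervals overlapped that of H1. As a share of all histone reads, H1 was 25.4% with the mimic (exact Clopper-Pearson interval 22.6 to 28.3%) and 36.5% with scramble (32.9 to 40.2%). These shares also depend on the reads of the other classes, and the H1 sums themselves differed only within counting error.

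**Figure D2:**
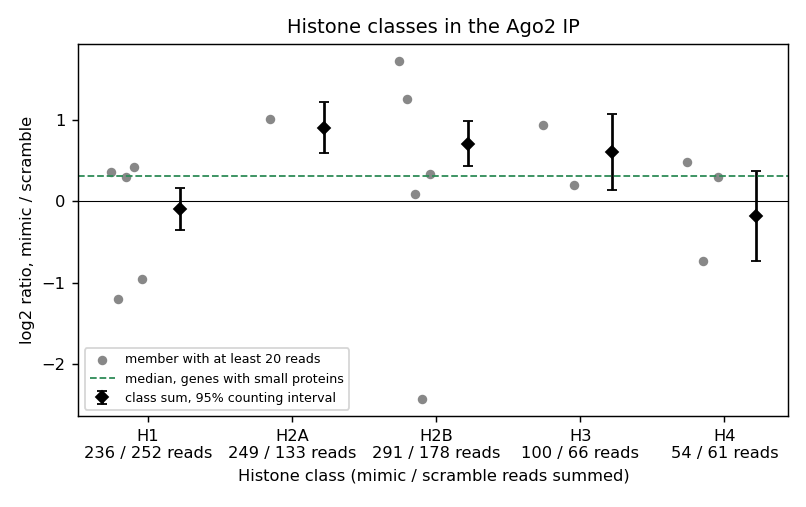
The log2 ratio of mimic to scramble is on the y axis for the 5 histone classes, with members of at least 20 reads as grey points and the ratio of the class sums as black diamonds with 95% counting intervals. The sums of H2A (0.90), H2B (0.71) and H3 (0.60) lie above 0 with their intervals, those of H1 and H4 have intervals across 0, and the dashed line is the median of tested genes with proteins of at most 250 residues (0.31).

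Genes with small proteins had a higher median ratio than tested genes as a whole. Over the 12186 genes with at least 20 reads the median log2 ratio was 0.00, but over the 1955 of them that encode proteins of at most 250 residues it was 0.31, and histones are proteins of that size. The median of the 16 histone genes with at least 20 reads was 0.32. The part of protein size or mRNA length in the class ratios was not tested, and the 3 histone genes with the most reads have long annotated transcripts, of 2146 bases in Hist3h2a, 1560 in Hist1h1c and 1156 in Hist1h2bc.

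Within H2A a single gene made the class. Hist3h2a held 82.3% of the H2A reads with the mimic and 76.7% with scramble. It lies on the plus strand of chromosome 11 from 58954685 to 58956830 in GRCm38 and has 1 exon. Its 205 and 102 reads gave a 2.01-fold higher count in the mimic library (1.58 to 2.57), a log2 ratio of 1.01. The other 17 H2A genes had 44 and 31 reads together, 1.42-fold higher with an interval from 0.876 to 2.32. None of them reached 20 reads, and the largest was Hist1h2ai with 14 and 5 (log2 ratio 1.48, -0.07 to 3.31). Hist1h2ac had 11 reads with the mimic and 0 with scramble, at least 2.51-fold higher by the lower bound of its counting interval. Hist1h2af had 0 and 5 reads, which was within counting error, as the interval of its ratio reached up to 1.09. In the annotation 708 exon bases of Hist3h2a are also exon bases of Trim17 on the same strand, a gene with 6 and 11 reads, so reads there could have been left uncounted.

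The H2B genes were the most unequal among themselves. Hist1h2bc, on the plus strand of chromosome 13 from 23684199 to 23692908, had 142 reads with the mimic and 43 with scramble. This 3.30-fold difference (2.33 to 4.76) was the largest increase among the histone genes with at least 20 reads. Hist1h2bj had 50 and 21 reads, 2.38-fold higher (1.40 to 4.17). In the opposite direction, Hist2h2bb had 5 reads with the mimic and 27 with scramble. Its log2 ratio of -2.43 (-4.17 to -1.04) was lower than that of all but 0.181% of tested genes. Hist2h2bb has 0% unique windows, because its 381 annotated bases lie within an antisense gene, Gm20628, and without strand its reads cannot be told apart from those of such a partner. It also shares 226 exon bases with Gm42743, a long non-coding RNA gene on the same strand, from which strand would not separate it. Hist2h2be, the only H2B gene with 100% unique windows, had 49 and 39 reads, and its log2 ratio of 0.33 (-0.31 to 0.97) was within counting error. Hist1h2bk was close to equal with 16 and 15. Without Hist1h2bc the class had 149 and 135 reads, 1.10-fold higher with an interval from 0.868 to 1.40.

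The linker histones split in direction. Hist1h1c had 116 reads with the mimic and 94 with scramble, giving a log2 ratio of 0.30 (-0.10 to 0.71). Hist1h1a had 41 and 32 reads, with 0.36 (-0.35 to 1.07). Hist1h1d followed with 28 and 21, with 0.41 (-0.45 to 1.30). These 3 were higher in the mimic library, each within its counting error. Hist1h1e was lower, with 34 and 66 reads and a log2 ratio of -0.96 (-1.60 to -0.34). Hist1h1b had 17 and 39 reads, a log2 ratio of -1.20 (-2.11 to -0.34). Both intervals lie below 0. The class sum, at -0.10, and the median of the 5 genes, at 0.30, therefore differed in sign. Hist1h1b, with 100% unique windows, lies on the minus strand of chromosome 13 from 21779883 to 21780625. Hist1h1e, on the same strand from 23620629 to 23622558, shares 496 annotated exon bases with Hist1h2be, a gene of 6 and 4 reads.

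For the H3 and H4 genes the counts were small throughout. Hist2h3c1 had 38 reads with the mimic and 33 with scramble, and Hist1h3c had 23 and 12, a log2 ratio of 0.94 (-0.13 to 2.08). The remaining H3 genes had at most 9 reads in a library, as in Hist1h3a with 9 and 2 (log2 ratio 2.17, -0.10 to 5.42). More reads in the mimic library were seen in 9 of the 11 H3 genes with a read, and in 4 of the 11 H4 genes. Of all 12186 genes with at least 20 reads, 6086 had a log2 ratio above 0, but most of these H3 and H4 genes had fewer reads. Among H4 genes, Hist1h4d had 12 and 20 reads, Hist1h4i 16 and 13, and Hist1h4b 14 and 10, each within counting error. The H4 sum and the median of these 3, at 0.30, also differed in sign.

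**Figure D3:**
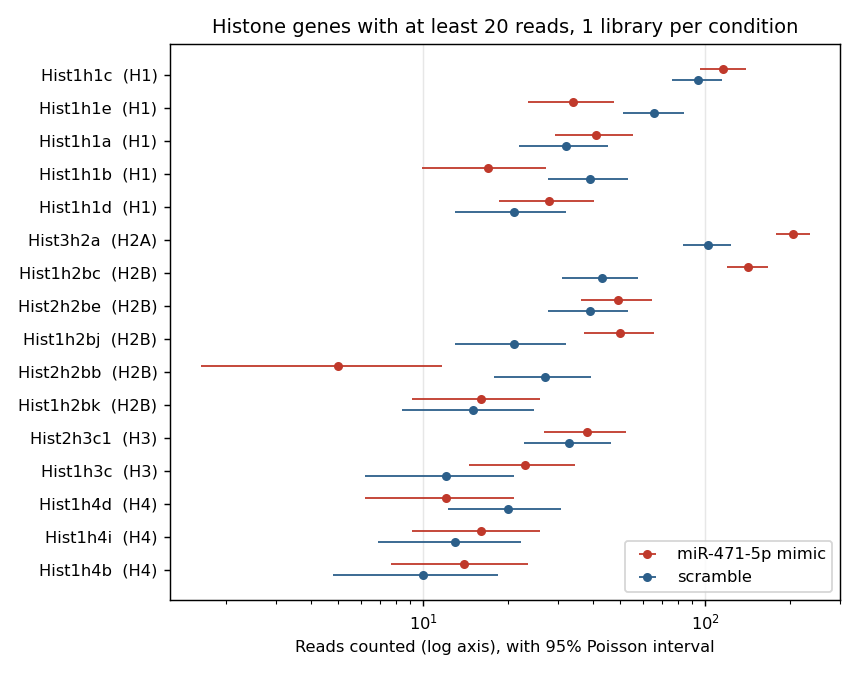
Reads counted in the mimic library (red) and the scramble library (blue) are plotted on a log axis for the 16 histone genes with at least 20 reads, with 95% Poisson intervals of each count. The intervals of the libraries stand apart for Hist3h2a (205 and 102), Hist1h2bc (142 and 43), Hist1h2bj (50 and 21), Hist1h1e (34 and 66), Hist1h1b (17 and 39) and Hist2h2bb (5 and 27), and they overlap for the other genes.

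Of the 16 genes with at least 20 reads, 3 were at least 2-fold higher in the mimic library, namely Hist1h2bc, Hist1h2bj and Hist3h2a. Over all 12186 tested genes 3.96% were at least 2-fold higher. Low counts alone spread ratios, however, and among the 2673 genes with 20 reads up to the 307 of Hist3h2a the share was 10.4%. In the other direction 2 of 16, Hist2h2bb and Hist1h1b, were at least 2-fold lower, where the shares were 3.08% of all tested genes and 8.27% of those in the same range of reads. Counting intervals lay above 0 for 3 histone genes and below 0 for 3. In the same range of reads this was so for 21.4% and 14.8% of genes, and over all tested genes for 31.5% and 32.5%. The 3 and 2 calls among 16 genes rest on few reads and have no replicate. Closest to the 2-fold limit, Hist3h2a lay just inside it with a log2 ratio of 1.01, and Hist1h1e with -0.96 and Hist1h3c with 0.94 lay just outside.

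Many H2A and H2B genes lie head to head and share the stretch between their starts as a promoter. In GRCm38, 13 such H2A and H2B pairs were found, with 172 to 305 bases between the genes. The reads of the partners were far apart in some pairs. Hist1h2bc had 142 and 43 reads and its partner Hist1h2ac 11 and 0. Hist2h2be had 49 and 39, and its partner Hist2h2ac 0 and 3. The pseudogene Hist3h2bb-ps, opposite Hist3h2a, had 0 reads in both libraries. The H2B gene had more reads in 7 of the 13 pairs, the H2A gene in 4, and 2 pairs had no reads. Some of these pairs differed by only 1 read, such as Hist1h2ba with 0 and 1 reads and Hist1h2aa with 0 in both libraries. How much of the differences between partners comes from windows that the copies share was not tested.

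Histone variants that lie outside the clusters are made through the cell cycle, and most of their mRNAs are polyadenylated. Their reads were far more numerous. Per kilobase of the longest coding transcript, the median of the 16 listed variants was 438 reads with the mimic and 382 with scramble, against 4.12 and 2.83 for the 67 clustered genes. H1f0, a linker variant of cells that are no longer dividing rapidly, had 21501 and 14870 reads, a log2 ratio of 0.53 (0.50 to 0.56). H3f3b, one of the genes for the replacement histone H3.3, had 16736 and 11177 reads, with 0.58 (0.55 to 0.62), and H3f3a, another, had 2167 and 1869, with 0.21 (0.12 to 0.30). H2afx, the variant phosphorylated at DNA breaks, also has a stem-loop match in its longest coding transcript. Its reads were 3966 and 3178, with 0.32 (0.25 to 0.39). H2afz, by contrast, had only 40 and 30. Counting intervals lay above 0 for 8 of the 13 variants with at least 20 reads and below 0 for none, and 0 were past 2-fold in either direction. Intervals lay above 0 for 31.5% and below 0 for 32.5% of all tested genes, and for 57.3% and 11.3% of those with proteins of at most 250 residues. Their median log2 ratio was 0.32, which is the value of the clustered genes and close to the 0.31 of genes with small proteins.

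The genes listed for the processing and decay of histone mRNA were well covered, and not all of them are particular to histone mRNA. Slbp had 898 reads with the mimic and 754 with scramble, giving a log2 ratio of 0.25 (0.11 to 0.39). Lsm10 and Lsm11 belong to the U7 particle that directs the cut after the stem-loop, and they had log2 ratios of 0.19 (0.04 to 0.35) and -0.03 (-0.17 to 0.12). Npat, the coactivator of histone gene transcription, had 1145 and 1536 reads, with -0.42 (-0.54 to -0.31). Casp8ap2, which encodes the processing factor FLASH, had 840 and 1191, with -0.50 (-0.63 to -0.38). Over the 27 genes of this list the median was -0.12, 0 were at least 2-fold higher and 2 were at least 2-fold lower, where 3.96% and 3.08% of all tested genes were. Counting intervals lay above 0 for 9 and below 0 for 13 of them, against 31.5% and 32.5% of all tested genes. The 2 past 2-fold were Xrn1, a 5′ to 3′ exonuclease, with 93 and 252 reads (log2 ratio -1.44), and Zcchc6, a uridylyltransferase, with 526 and 1084 (-1.04). Both are general factors of RNA decay as well.

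The medians of S phase genes and of histone chaperones were near 0, while single genes lay on both sides of it. Of 37 S phase genes 0 passed 2-fold in either direction and the median log2 ratio was 0.02. Their counting intervals lay above 0 for 16 and below 0 for 14 (31.5% and 32.5% of all tested genes), with values from -0.76 in Ccne2 to 0.94 in Gins4. Ccna2, a cyclin of S phase, had 9344 and 10107 reads. Thus reads of S phase genes were plentiful in both libraries, while all clustered histone genes together had 930 and 690. Among 15 chaperone genes in the tables the median was -0.02, with 0 past 2-fold. Their intervals lay above 0 for 4 and below 0 for 7, and values ran from -0.35 in Rbbp7 to 0.59 in Npm1.

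**Figure D4:**
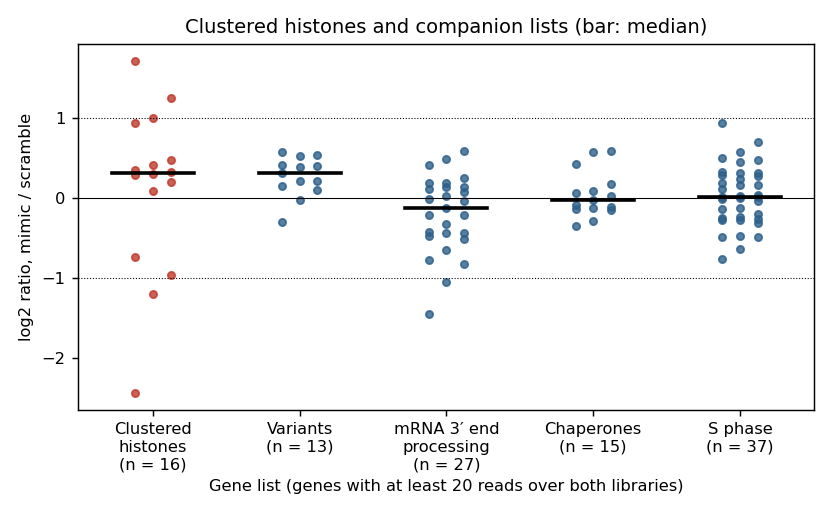
The log2 ratio of mimic to scramble is shown for each gene with at least 20 reads in the clustered histone genes (n = 16), histone variants (n = 13), factors of histone mRNA processing and decay (n = 27), chaperones (n = 15) and S phase genes (n = 37), with black bars at the medians and dotted lines at 2-fold. The clustered genes spread from -2.43 to 1.72, and their median of 0.32 equals that of the variants, while the other 3 medians lie between -0.12 and 0.02.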

How the data were processed

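Ago2 IP libraries of TM4 cells were analysed, 1 from miR-471-5p mimic-transfected and 1 from scramble-transfected cells. Each table, as the authors deposited it, holds unnormalized counts of reads by gene symbol, and 5 summary rows that were left out of library sizes. The submitters' processing notes name CASAVA 1.8.2, TopHat2 2.0.8b, HTSeq and genome build mm9. The gene annotation, strand setting and read length are not given in the sources used here. Multiply aligned and ambiguous reads held 39.8% and 0.653% of all entries in the mimic table and 35.6% and 0.585% in the scramble table. Gene totals were 18628310 and 18717225.

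TMM factors (edgeR 4.0.16, R 4.3.3) scaled the libraries over the 12186 genes with at least 20 counts. The log2 ratio is that of scaled counts with no prior count, a count of 0 was set to 3, and no ratio was taken where both counts were at most 3. The 95% intervals are exact Clopper-Pearson bounds on a gene's or class's share of reads in the mimic library (scipy 1.17.1), turned into ratios. No test could be run with 1 library per condition. Scaling was tested on simulated counts. Transcript features came from GENCODE M21 (GRCm38), matched by symbol, with 67 of 68 histone genes found, and the miRNA sequence came from RefSeq (GRCm38.p6). No coordinate was converted from mm9. Protein lengths were found for 88.1% of tested genes. Genes were named if they had at least 200 counts, the largest or smallest ratios in a class, or passed 2-fold with at least 20 counts. Germline members and fixed companion genes were also named, and others were chosen after their values were seen. Alternatives were DESeq2 1.42.0 size factors, total counts, other count filters and limits, and sums without the leading gene. Members and lists were chosen with earlier results of these data known.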

Additional observations from a re-analysis of the deposited data

Results flagged for a closer look

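The share of entries aligned to more than one place drew attention because those entries enter no comparison. They made up more of the mimic library's entries, at 39.8%, than of the scramble library's, at 35.6%. How many reads these entries stand for is not given. Reads of identical histone copies would be among them, and their number was not tested.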

How the results depend on the processing

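All 64 values recomputed with DESeq2 size factors or total counts kept their value within the counting interval or within 0.1 for a median, a weak check because the scalings lay within 0.0075 (log2) of TMM. Class sums leaned on single genes. Without its leading gene, H2A was at 0.50 (-0.19 to 1.22), H2B at 0.14 (-0.20 to 0.49) and H1 at -0.40 (-0.75 to -0.05). H3 was at 0.44 (-0.14 to 1.03) with only members of at least 20 counts. Chosen after seeing the data, the sum of all members was 0.10 without Hist3h2a and Hist1h2bc and 0.27 with only members under 20 counts, and H3 was 1.09 with only members of at least 50% unique windows. The median of members with at least 20 counts was 0.30 for H1 and 0.33 for H2B. Genes past 2-fold, 3 higher and 2 lower, became 7 and 4 with no count filter and 1 and 0 with at least 200 counts. With a log2 limit of 0.5, 4 were higher and 4 lower. The shares of all genes past the limit at these other settings were not computed, so these counts cannot be set against a background. Detection at more than 3 counts gave 31 genes in place of 55. The median of the histone genes was 0.65 with at least 200 counts, which only Hist3h2a (1.01) and Hist1h1c (0.30) reached. The background median was -0.001 over all tested genes and 0.31 over those with proteins of at most 250 residues, a different set. This is a change of sign only from a value close to 0. Elsewhere the cause was not tested. No ratio was taken for Hist4, and leaving out a replicate was not possible with 1 library per condition. No paired analysis was possible because the groups have 1 library each.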
